A study of Mus musculus with 12 samples.

Results

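The Kruppel-like factor genes measured here are 10 rows of a table of 55335 genes, taken by symbol: Klf2, Klf3, Klf4, Klf6, Klf7, Klf9, Klf10, Klf11, Klf13 and Klf15. Read counts came from 12 mouse RNA-seq libraries in 4 groups of 3. Bone-marrow-derived macrophages (BMDMs) came from male mice aged 6 weeks, were grown for 7 days with 10 ng/mL M-CSF and then received 1 ng/mL thyroid-stimulating hormone (TSH) for 24 h. Livers came from males labelled 6 weeks old that were given a high-fat diet for 9 weeks, fasted for 8 h and injected with 1.5 U/kg insulin 5 min before collection. In both tissues, Tshrf/f mice, which carry a floxed TSH receptor gene, were compared with TshrMKO mice (Tshrf/f,Lyz2-Cre), in which Cre from the Lyz2 promoter deletes the receptor in myeloid cells. All BMDM cultures received TSH and all mice carried the floxed allele, so neither TSH itself nor the floxed allele was compared. No group carried Lyz2-Cre without the floxed allele, so receptor deletion cannot be told apart from Cre itself. The liver libraries are whole tissue, in which most cells are outside the reach of Lyz2-Cre. The study's methods give 3 littermate mice per group as the RNA source in each tissue, and the labels do not tie a library to a mouse.

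Kruppel-like factors are zinc-finger transcription factors that bind CACCC boxes and GC-rich boxes in promoters through a nearly identical DNA-binding domain at the end of the protein, while their variable front parts recruit activators or repressors. KLF2 and KLF4 restrain or redirect macrophage activation, and KLF6 favours inflammatory gene expression in macrophages. KLF10 and KLF11 are induced by TGF-beta and recruit the Sin3a repressor, KLF3 represses through CtBP, and KLF9 and KLF15 are induced by glucocorticoids, with KLF15 driving amino acid breakdown and gluconeogenesis in the liver.

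Library totals were 33683981 to 40954211 counts in BMDMs and 28962878 to 40420513 in livers. The targeted gene did not check the labels: Tshr had at most 5 counts in any BMDM library and 0 in every liver library. A supplementary receptor table of the study lists these same liver counts under the opposite genotype headings, so the livers are called here by their deposited labels and each liver direction rests on them. Hepatocyte markers summed to at most 0.0783 CPM, the read count scaled to library size, in BMDMs and to 75454 to 100935 CPM in livers. BMDM Tshrf/f replicate 3 stood apart in composition, with a TMM scaling factor of 0.738.

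Promoters of Klf3, Klf9 and Klf11 are printed because these genes were lower together in the livers labelled TshrMKO, and that of Klf15 because it differed there by less than its error. They are RefSeq promoters of build GRCm38.p6, 250 bases before to 50 after the start, read 5′ to 3′ on the gene's strand, with CACCC and GGGCGG, on either strand, in capitals. Klf3 lies at chr5:64803271-64803570 on the plus strand, Klf9 at chr19:23140976-23141275 on the plus strand, Klf11 at chr12:24651121-24651420 on the plus strand and Klf15 at chr6:90462326-90462625 on the plus strand.
Klf3: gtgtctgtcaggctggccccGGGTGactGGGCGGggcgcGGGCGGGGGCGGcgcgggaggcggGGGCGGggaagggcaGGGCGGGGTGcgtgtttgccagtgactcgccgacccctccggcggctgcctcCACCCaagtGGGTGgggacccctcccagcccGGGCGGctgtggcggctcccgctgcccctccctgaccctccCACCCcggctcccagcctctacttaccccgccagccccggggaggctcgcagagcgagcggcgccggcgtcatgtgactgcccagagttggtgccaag
Klf9: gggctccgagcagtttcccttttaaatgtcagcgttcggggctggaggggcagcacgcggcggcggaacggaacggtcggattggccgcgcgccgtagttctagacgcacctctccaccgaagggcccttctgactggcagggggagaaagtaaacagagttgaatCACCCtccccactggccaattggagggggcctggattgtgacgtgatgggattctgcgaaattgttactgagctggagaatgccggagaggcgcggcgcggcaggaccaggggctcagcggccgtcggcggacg
Klf11: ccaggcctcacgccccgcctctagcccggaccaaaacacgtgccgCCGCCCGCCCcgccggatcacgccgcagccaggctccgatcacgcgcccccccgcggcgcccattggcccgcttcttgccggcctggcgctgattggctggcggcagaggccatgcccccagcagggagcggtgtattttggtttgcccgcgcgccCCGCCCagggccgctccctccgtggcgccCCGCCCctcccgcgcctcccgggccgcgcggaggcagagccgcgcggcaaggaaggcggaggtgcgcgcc
Klf15: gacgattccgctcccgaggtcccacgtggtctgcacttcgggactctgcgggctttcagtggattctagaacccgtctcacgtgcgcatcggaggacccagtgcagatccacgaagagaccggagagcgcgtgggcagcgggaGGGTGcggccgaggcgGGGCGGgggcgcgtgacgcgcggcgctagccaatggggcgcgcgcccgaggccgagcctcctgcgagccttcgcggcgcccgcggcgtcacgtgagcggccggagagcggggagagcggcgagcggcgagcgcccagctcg

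The 9 members with a promoter in the table (all but Klf10) differed in what these windows held. GGGCGG was in 8 of the 9, absent from Klf9, and in 35.7% of 32851 promoters of the same length. The Klf3 window held it 6 times and CACCC 5 times, the most of the 4 printed, whereas the Klf11 window held the former 4 times and not the latter. The CACCC box was found in 6 of the 9 members and in 57.5% of all promoters. CACGTG, the E-box read by circadian clock factors, was in 4 of the 9, 3 times in Klf15, and in 7.15% of all promoters. CCAAT was in 5 of the 9 (37.4% of all), and TGACG, the core of a cAMP response element, in 6 of the 9 (20.8% of all). The full palindrome TGACGTCA, which contains that core, was in none of the 9 and in 1.79% of all. A glucocorticoid response motif, AGAACA, was also in none and in 19.0% of all. GC content was 76.7% in Klf3, 77.7% in Klf11, 73.3% in Klf15 and 63.3% in Klf9, against a median of 52.67% over all promoters.

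In BMDMs the comparison of TshrMKO with Tshrf/f asks how TSH-treated macrophages that carry Lyz2-Cre differed from those that do not. Klf10 and Klf11, the TGF-beta-inducible pair, lay above the Tshrf/f range in every TshrMKO library, Klf7 was lower on average, and the other tested members had unadjusted p values of 0.159 or more. Klf15 was at the floor and was not tested. Of the 9 members tested, 0 passed an adjusted p of 0.05 by edgeR's quasi-likelihood test, where 0% of 15372 genes did, and 3 passed an unadjusted p of 0.05, where 17.9% of genes did. Of these 3, 2 were higher, where 7.73% of genes were, and 1 lower, where 10.2% were. Without TshrMKO replicate 1, or without replicate 2, only Klf10 passed that threshold. DESeq2 called 1 member, Klf10, and 8.3% of genes. The groups did not overlap for 2 members, against 28.7% of genes. The median log2 fold change was -0.02 over the members and 0.01 over all genes tested.

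**Figure D1:**
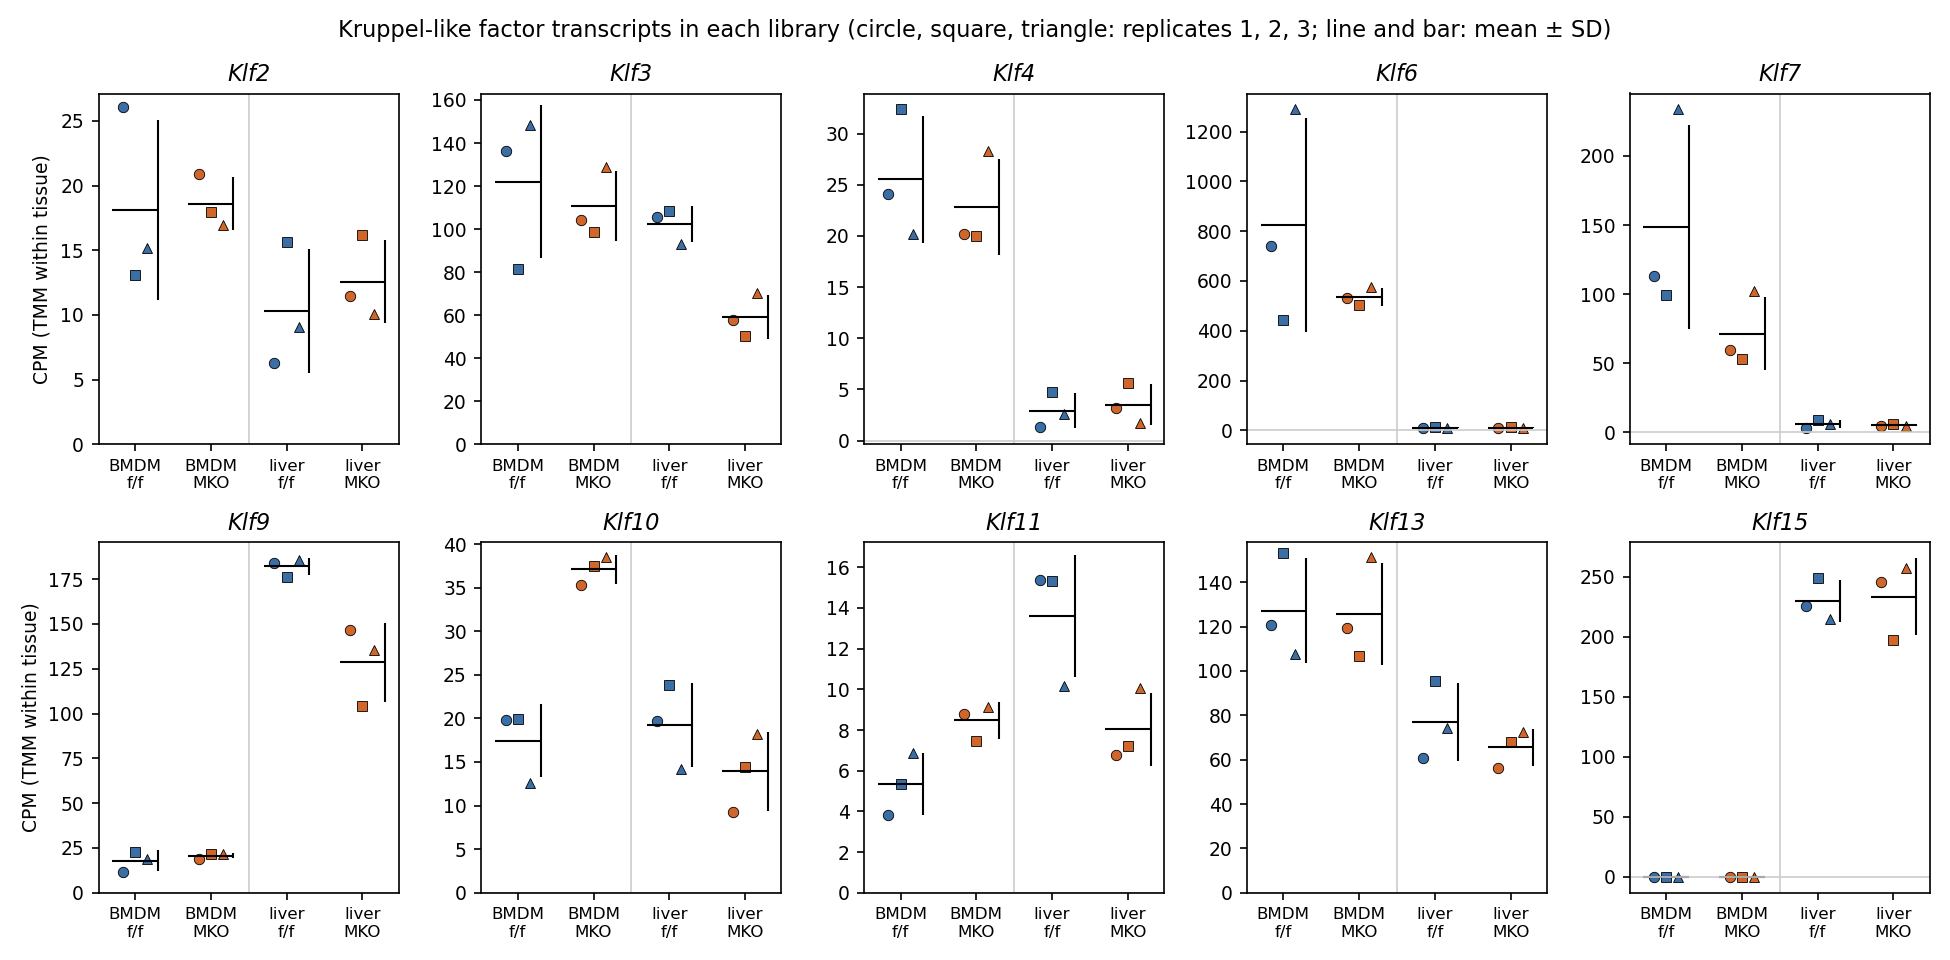
CPM of each Kruppel-like factor gene (linear vertical axis, TMM within each tissue) in the 12 libraries, grouped as BMDM or liver and f/f (blue) or MKO (orange), with each group's mean and SD as line and bar. Klf10 in BMDMs was 35.3 to 38.6 CPM in the MKO libraries and 12.6 to 19.9 in the f/f libraries, while Klf3 and Klf9 in liver were lower in all libraries labelled MKO.

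Klf10 was at 19.8, 19.9 and 12.6 CPM in Tshrf/f replicates 1 to 3 and at 35.3, 37.5 and 38.6 CPM in TshrMKO replicates 1 to 3. All TshrMKO libraries lay above all Tshrf/f libraries, and the TshrMKO values were within 1.09-fold of each other. The log2 fold change was 1.09 ± 0.20 (SE), with an unadjusted p of 0.00128 and an adjusted p of 0.218 by edgeR. DESeq2 gave it an adjusted p of 0.000226, and over 14 alternatives the adjusted p ran from 0.000226 to 0.587. Leaving out any 1 library kept the log2 fold change between 0.90 and 1.21 and the unadjusted p at or under 0.00603.

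Klf11, the closest relative of Klf10, was at 3.84, 5.36 and 6.87 CPM in Tshrf/f and at 8.79, 7.46 and 9.15 CPM in TshrMKO. The groups did not overlap, though the gap between the nearest libraries was narrow. Its log2 fold change was 0.66 ± 0.26 (SE), with an unadjusted p of 0.0383 and an adjusted p of 0.261 by edgeR. The unadjusted p stayed under 0.05 in only 1 of the 6 fits that left out a library, that without Tshrf/f replicate 3.

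Klf7, better known from neurons and fat cells, was at 113, 99.2 and 234 CPM in Tshrf/f and at 59.4, 53.1 and 101.99 CPM in TshrMKO. TshrMKO replicate 3 reached into the Tshrf/f range, and Tshrf/f replicate 3 was far above every other library. The log2 fold change was -1.06 ± 0.41 (SE), with an unadjusted p of 0.0403 and an adjusted p of 0.263 by edgeR, and it was -0.57 without Tshrf/f replicate 3. The unadjusted p stayed under 0.05 in 3 of the 6 fits that left out a library, lost without Tshrf/f replicate 3 or TshrMKO replicate 1 or 2. Exons of Klf7 share 3196 bases with Gm26649 on the other strand, and whether counting used strand is not given in the sources used here.

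Klf6 was at 740, 442 and 1289 CPM in Tshrf/f and at 530, 504 and 576 CPM in TshrMKO. Here too Tshrf/f replicate 3 was the highest library, and the TshrMKO range lay wholly within that of Tshrf/f. The log2 fold change of -0.62 ± 0.39 (SE) had an adjusted p of 0.420 by edgeR and was -0.14 without that library. That library also carried the highest neutrophil marker sum of the BMDM libraries, 48.7 CPM. Tshrf/f replicate 2, the lowest library for Klf6, was next at 31.2 CPM, and the others were at 4.64 to 10.3 CPM. Of that sum 45.6 CPM came from S100a8 alone, and 4 of the 6 markers had at most 3 counts there. The part of neutrophils in the Klf6 and Klf7 values was not tested.

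The remaining BMDM members overlapped between genotypes. Klf4, which monocytes need to differentiate, was at 24.1, 32.4 and 20.2 CPM in Tshrf/f and at 20.2, 20.0 and 28.3 CPM in TshrMKO. Klf2 was at 26.1, 13.1 and 15.2 CPM in Tshrf/f and at 20.9, 18.0 and 17.0 CPM in TshrMKO. Their log2 fold changes, -0.16 ± 0.23 and 0.04 ± 0.28 (SE), were smaller than their errors. Klf3 ranged from 81.5 to 148 CPM, Klf9 from 11.6 to 23.0 CPM and Klf13, a regulator of T-cell chemokine expression, from 106.8 to 153 CPM over the 6 BMDM libraries, with log2 fold changes of -0.14 ± 0.25, 0.21 ± 0.26 and -0.02 ± 0.20 (SE). The sign of the Klf3 difference turned to 0.08 with scaling to library totals only, and that of Klf13 to 0.12, where the median of all genes moved to 0.17.

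The macrophage and dendritic cell marker sums moved with genotype in BMDMs. The 8 macrophage markers summed to 15154 to 17903 CPM in Tshrf/f and 20154 to 29694 CPM in TshrMKO, all 8 above 0 in each library, with 4 of the 8 higher and 4 lower in TshrMKO. The 4 dendritic cell markers summed to 20.3 to 52.2 CPM in Tshrf/f and 67.7 to 88.8 CPM in TshrMKO. Neither sum overlapped between genotypes, as for Klf10 and Klf11, but 1 gene carried each. Lyz2, the lysozyme gene whose promoter drives Cre in these mice, ran from 8768 to 9837 CPM in Tshrf/f and from 14528 to 22306 CPM in TshrMKO. Without it the other 7 macrophage markers summed to 6289 to 9135 CPM in Tshrf/f and 5626 to 7388 CPM in TshrMKO, which overlap. Itgax, the CD11c integrin, ran from 15.95 to 47.97 CPM in Tshrf/f and from 62.1 to 85.7 CPM in TshrMKO. Without it the other 3 dendritic cell markers summed to 3.91 to 4.37 CPM in Tshrf/f and 3.03 to 5.60 CPM in TshrMKO, which also overlap. The 7 stellate and fibroblast markers summed to 1071 to 2675 CPM in Tshrf/f and 680 to 1365 CPM in TshrMKO, against 31.6 to 258 CPM in livers. Their sum was highest in Tshrf/f replicate 2, also the top BMDM library for Klf4 and Klf9 by CPM within the tissue, and for Klf13. The part of such cells in these values was not tested.

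In livers the comparison asks whether the TshrMKO genotype came with a change in the whole organ. Klf3, Klf9 and Klf11 were lower in every liver labelled TshrMKO, while Klf15, the most abundant member per length in this tissue, differed by less than its error. By edgeR 0 of the 10 members passed an adjusted p of 0.05, where 0% of 15062 genes did, and 3 passed an unadjusted p of 0.05, where 10.5% of genes did. All 3 were lower, where 5.18% of genes were. DESeq2 called 1 member, Klf3, and 2.16% of genes. The groups did not overlap for these 3 members, all below, against 7.74% of genes. The median log2 fold change was -0.19 over the members and -0.01 over all genes tested. Fewer cells of a type and less RNA per cell cannot be told apart in these bulk libraries.

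**Figure D2:**
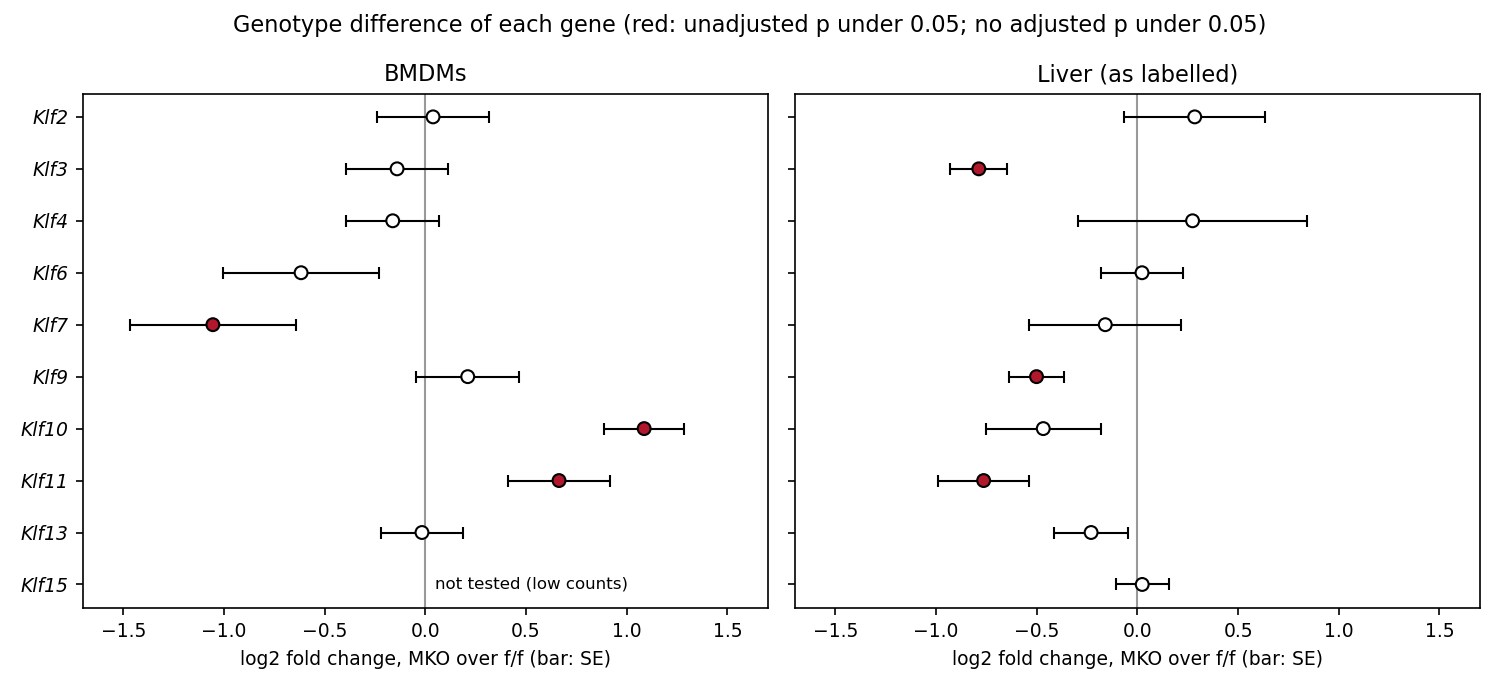
Log2 fold change of each gene, MKO over f/f (horizontal axis), with its SE as a bar, in BMDMs (left) and in livers as labelled (right); filled red points have an unadjusted p under 0.05 and no gene has an adjusted p under 0.05. In BMDMs Klf10 (1.09) and Klf11 (0.66) lie above 0 and Klf7 (-1.06) below it, whereas in liver Klf3 (-0.79), Klf11 (-0.76) and Klf9 (-0.50) lie below 0.

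Klf3, a repressor that works with CtBP, was at 105.5, 108.6 and 92.9 CPM in Tshrf/f and at 57.5, 50.1 and 70.3 CPM in the livers labelled TshrMKO. The lowest Tshrf/f liver stood well clear of the highest labelled TshrMKO. Its log2 fold change was -0.79 ± 0.14 (SE), with an unadjusted p of 0.000800 and an adjusted p of 0.303 by edgeR. With DESeq2 the adjusted p was 0.000498, and over 15 alternatives it ran from 0.000498 to 0.687. Leaving out any 1 library gave -0.93 to -0.69. Sp2, of the neighbouring SP family, had the pattern most like Klf3 of 13244 genes, with a Pearson r of 0.97 over the 12 libraries after centring on each tissue, and in liver it had a log2 fold change of -0.64 ± 0.17 (SE) with an adjusted p of 0.334 by edgeR.

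Klf9, which responds to glucocorticoids and thyroid hormone, was at 184, 176.5 and 185.5 CPM in Tshrf/f and at 146.5, 104 and 135 CPM in the livers labelled TshrMKO. The Tshrf/f livers were tight, with a coefficient of variation of 2.69%, against 17.1% in the other group. The log2 fold change was -0.50 ± 0.14 (SE), with an unadjusted p of 0.00817 and an adjusted p of 0.336 by edgeR, and -0.61 to -0.38 with any 1 library left out.

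Klf11 was at 15.3, 15.3 and 10.15 CPM in Tshrf/f and at 6.79, 7.21 and 10.08 CPM in the livers labelled TshrMKO. The third replicates of both groups all but met. Its log2 fold change was -0.76 ± 0.23 (SE), with an unadjusted p of 0.0118 and an adjusted p of 0.349 by edgeR. Klf10 followed in direction only, at 19.7, 23.9 and 14.2 CPM in Tshrf/f against 9.22, 14.4 and 18.3 CPM, with overlapping groups and a log2 fold change of -0.47 ± 0.28 (SE).

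The liver labels carry a letter, A or B, whose meaning is not given: Tshrf/f replicates 1 and 2 and TshrMKO replicate 3 have A, the others B. Within A the log2 ratio of mean CPM, TshrMKO over Tshrf/f, was -0.61 for Klf3, -0.41 for Klf9 and -0.61 for Klf11. Within B it was -0.79, -0.57 and -0.54 for the same genes. Each letter leaves 1 library in one of the groups, so neither value has a test. In the fit of all 6 livers with the letter as covariate, the log2 fold change was -0.70 for Klf3, -0.49 for Klf9 and -0.57 for Klf11, with adjusted p values by edgeR of 0.451, 0.469 and 0.451.

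Klf15 was at 225, 249 and 214.5 CPM in Tshrf/f and at 246, 197 and 257 CPM in the livers labelled TshrMKO, with a log2 fold change of 0.02 ± 0.13 (SE). Its groups overlapped throughout. Klf13 overlapped too, at 60.6 to 95.5 CPM in Tshrf/f and 56.2 to 72.6 CPM in the other group, with a log2 fold change of -0.23 ± 0.18 (SE).

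Klf2, Klf4, Klf6 and Klf7 were low in liver, at 6.26 to 16.2, 1.35 to 5.64, 8.76 to 14.0 and 2.98 to 8.84 CPM, and showed no genotype difference beyond error. What they shared was a pattern over single livers. Tshrf/f replicate 2 and TshrMKO replicate 2 were the top pair of livers for each of these genes, and Tshrf/f replicate 1 was the lowest for each. The 8 macrophage markers were highest in the same pair, at 331 CPM in Tshrf/f replicate 2 and 305 CPM in TshrMKO replicate 2 against 133.04 to 226.0 CPM in the other livers. The 7 endothelial markers summed to 48.5 CPM in Tshrf/f replicate 1 and 106 to 169 CPM elsewhere. The 7 stellate and fibroblast markers summed to 31.6 CPM in that liver and 98.4 to 258 CPM elsewhere. Dendritic cell markers were lowest there too, whereas neutrophil markers were highest there, and macrophage and Kupffer cell markers were lowest in TshrMKO replicate 3. The part of these cell types in the levels of the 4 genes was not tested.

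**Figure D3:**
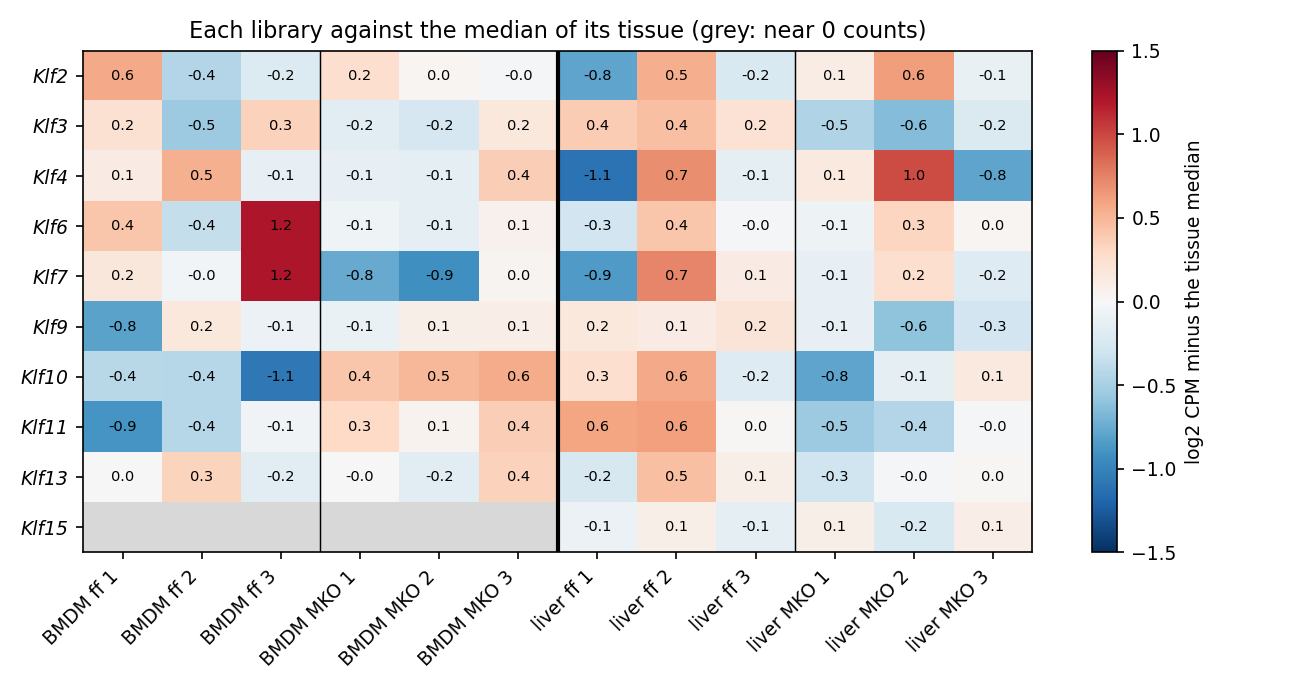
Each gene's log2 CPM (prior count 2) minus the median of the 6 libraries of its tissue, one column per library, red above and blue below the median, with the difference printed in each cell. Klf6 and Klf7 stand highest in BMDM f/f replicate 3, Klf10 and Klf11 change side between the genotypes in BMDMs, and Klf2, Klf4, Klf6 and Klf7 are lowest in liver f/f replicate 1.

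The genotype differences of the 2 tissues were set against each other in a fit of all 12 libraries. Culture, TSH, diet, fasting and insulin differed with the tissue and cannot be told apart from it here. Klf10 and Klf11 were higher in TshrMKO BMDMs and lower in livers labelled TshrMKO, and the liver difference minus the BMDM difference was -1.56 ± 0.38 (SE) for Klf10 and -1.43 ± 0.35 (SE) for Klf11 on the log2 scale. The unadjusted p was 0.00178 for Klf10 and 0.00186 for Klf11, and the adjusted p by edgeR was 0.159 and 0.160. DESeq2 gave adjusted p values of 0.00678 for Klf10 and 0.00876 for Klf11, within ranges over 20 alternatives of 0.00678 to 0.353 and 0.00876 to 0.356. Klf9 had a difference of -0.71 ± 0.30 (SE) with an adjusted p of 0.322 by edgeR. Thus 0 of 10 members passed an adjusted p of 0.05, where 0.0058% of 17246 genes did, and 3 passed the unadjusted threshold, where 14.5% of genes did. All 3 were lower, where 7.12% of genes were. By DESeq2 2 members passed, with 4.98% of genes. Without BMDM Tshrf/f replicate 2, 5 members passed the unadjusted threshold and 1, Klf15, whose BMDM counts are near 0, an adjusted p of 0.05. The other 7 members had unadjusted p values of 0.0631 or more. With the genotype labels of the livers exchanged, an alternative chosen after the data were seen, the difference was -0.64 for Klf10, 0.079 for Klf11 and 0.27 for Klf9, with adjusted p values by edgeR of 0.452, 0.994 and 0.732, so these differences rest on the deposited liver labels.

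Between tissues the members divided sharply by level. Culture, M-CSF, TSH, diet, fasting and insulin all differed with the tissue, so their parts cannot be told apart from that of tissue. Levels were compared per kilobase of exon, scaled over all 12 libraries. In BMDMs Klf6 led with a median of 93.4 CPM per kb (range 73.0 to 216), apart from every other member. Klf13 (11.7), Klf7 (9.10), Klf3 (7.69), Klf2 (7.00), Klf4 (5.35), Klf10 (4.86) and Klf9 (3.11) followed as medians, each overlapping the next. Klf11 at 1.21 and Klf15 at 0.0301 CPM per kb stood apart below. Klf6 made up 69.4% ± 9.6 (SD, n = 3) of the members' summed level per kb in Tshrf/f BMDMs and 64.3% ± 1.5 (SD, n = 3) in TshrMKO BMDMs.

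In liver Klf15 led with a median of 115 CPM per kb (range 97.8 to 123), followed by Klf9 at 45.9 and Klf13 at 12.7, each apart from the member above it. Klf3 (9.78), Klf2 (7.90), Klf10 (5.29), Klf6 (3.25), Klf11 (3.13), Klf4 (1.30) and Klf7 (0.891) followed, each overlapping the next. Klf15 made up 52.4% ± 0.93 (SD, n = 3) of the summed level in Tshrf/f livers and 59.3% ± 2.5 (SD, n = 3) in livers labelled TshrMKO, and Klf9 24.2% ± 2.5 and 18.9% ± 1.9.

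**Figure D4:**
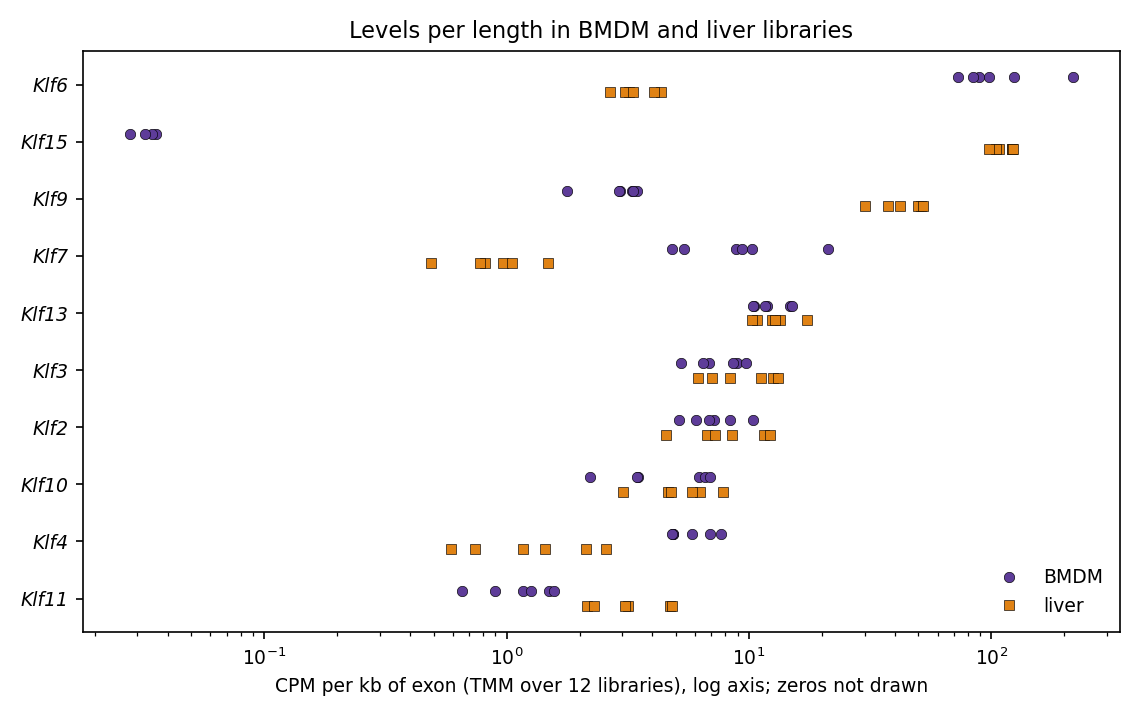
CPM per kilobase of exon (log axis) of each gene in the 6 BMDM libraries (circles) and the 6 livers (squares), with libraries at 0 not drawn. Klf6 in BMDMs (73.0 to 216) and Klf15 in liver (97.8 to 123) are the highest, and Klf15 in BMDMs stays at or under 0.0357.

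Within Tshrf/f, 8 of the 10 members differed between BMDMs and liver at an adjusted p of 0.05 by edgeR, where 69.3% of 17246 genes did. Within TshrMKO, 6 of the 10 did, where 68.5% of genes did. Of the 8, 3 were higher and 5 lower in BMDMs, and of the 6, 3 and 3. With library totals only, 4 were higher and 3 lower in Tshrf/f, and 6 and 2 in TshrMKO. Klf6 was higher in BMDMs by 5.34 ± 0.40 in Tshrf/f and 4.70 ± 0.39 in TshrMKO on the log2 scale (SE). Klf7 was higher by 3.77 ± 0.48 and 2.88 ± 0.46, and Klf4 by 2.24 ± 0.49 and 1.80 ± 0.48. Klf9 was lower in BMDMs in both genotypes, with log2 differences of -4.23 ± 0.24 and -3.52 ± 0.24. Klf11 was lower as well, with -2.23 ± 0.25 and -0.80 ± 0.25, the second of which turned to 0.16 when libraries were scaled by their totals alone and the median of all genes stood at 0.89. Its adjusted p within TshrMKO was 0.0135 by edgeR, and 0.0531 without BMDM TshrMKO replicate 2 and 0.0618 without liver TshrMKO replicate 3.

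Klf15 separated the tissues most widely. It had 0, 6 and 0 counts in Tshrf/f BMDMs and 5, 4 and 5 counts in TshrMKO BMDMs, against 6468 to 9033 counts in single livers. Summed over the group and divided by library totals without TMM, this was 0.0523 CPM in Tshrf/f BMDMs (95% exact Poisson interval 0.0192 to 0.114, counting error only). It was 0.127 CPM in TshrMKO BMDMs (0.0696 to 0.214), against 229 and 233 CPM in liver. For the 2 libraries at 0, the upper limit that a count of 0 allows, 3 counts, was 0.0753 and 0.115 CPM with TMM scaling.

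Klf10 was lower in BMDMs than in liver within Tshrf/f, by a log2 difference of -1.03 ± 0.27 with an adjusted p of 0.00557 by edgeR, and within TshrMKO the difference was 0.53 ± 0.26 with an adjusted p of 0.0960. Klf3 was lower in BMDMs within Tshrf/f, at -0.63 ± 0.22 with an adjusted p of 0.0259, and stood at 0.02 ± 0.22 within TshrMKO. The adjusted p of Klf3 within Tshrf/f rose to 0.0574 without BMDM replicate 2, 0.0584 without liver replicate 1 and 0.0688 without liver replicate 2. With library totals only, the Tshrf/f difference of Klf10 was -0.16 (adjusted p of 0.670) and that of Klf3 turned to 0.14, where the median of all genes was 0.79. Klf2 and Klf13 did not pass the test in either genotype.

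Among members, tissue-centred values over the 12 libraries ran most alike for Klf6 and Klf7 (Pearson r = 0.85), followed by Klf9 and Klf11 (0.69), Klf10 and Klf11 (0.69) and Klf2 and Klf4 (0.66). Among all 13244 genes that passed the filters of both tissues, Klf6 was most like Rap1b (r = 0.99) and Abi1 (0.97), and Klf7 most like Cd86 (0.98), a costimulatory molecule, and Gem (0.97). Klf10 was most like Zfp36l2 (0.94), which destabilises mRNA, and Zbtb16 (0.94), which had only 5 to 92 counts in BMDMs. Klf4 was most like Grap2 (0.96) and Jdp2 (0.95), Klf2 like Irf5 (0.91) and Plekho2 (0.89), Klf11 like Mnt (0.91) and Topors (0.88), Klf13 like S100a11 (0.90) and Taf8 (0.88), and Klf9 like Ubqln2 (0.88) and Zfp867 (0.88). These points share libraries, genotype groups and depth, and are given as a description.

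The inducers and partners of these genes were followed through lists fixed by name, 87 genes in all. None passed an adjusted p of 0.05 by edgeR in either genotype comparison. DESeq2 called 12 in BMDMs, where it called 8.3% of all genes, and 6 in liver, where it called 2.16%. The counts below use an unadjusted p of 0.05 by edgeR, which 17.9% of genes in BMDMs and 10.5% in liver passed. Of 9 genes on the TGF-beta and SMAD route to Klf10 and Klf11, 2 passed in BMDMs, both higher in TshrMKO. These were Smad7, an inhibitor that TGF-beta itself induces (log2 fold change 0.64 ± 0.18), and Tgfbr2, a receptor subunit (1.07 ± 0.42). In liver 3 passed, all lower: Smad3 (-0.41 ± 0.14), Smad7 (-0.71 ± 0.26) and Tgfbr1 (-0.27 ± 0.11). The list medians were 0.15 in BMDMs and -0.09 in liver.

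The glucocorticoid list of 10 genes holds the receptor gene Nr3c1 beside glucocorticoid-inducible genes, the class that Klf9 and Klf15 belong to. Of the 10, 9 were lower in the livers labelled TshrMKO and 4 of them passed. The list median was -0.58 against -0.01 over all genes. The list summed to 4170 to 5565 CPM in Tshrf/f livers and 2847 to 4374 CPM in the others, which overlap. Tsc22d3 overlapped in liver too, at 172 to 289 CPM in Tshrf/f and 245 to 285 CPM in the others. Dusp1, a MAP kinase phosphatase, had a log2 fold change of -1.74 ± 0.14 and an adjusted p of 0.0634, and Sgk1, a kinase, of -1.04 ± 0.22. In BMDMs 3 of the 9 tested passed, Zbtb16 (2.30 ± 0.48) and Tsc22d3 (1.73 ± 0.54) higher and Mt2, a metallothionein, lower (-2.30 ± 0.85), with a list median of 0.01. Mt2 overlapped between the genotypes, at 4.67 to 66.6 CPM in Tshrf/f and 5.71 to 9.63 CPM in TshrMKO. Zbtb16 had low counts, 5 to 27 in Tshrf/f BMDMs and 63 to 92 in TshrMKO BMDMs.

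Of the 12 immediate-early genes, 10 were tested in liver, 9 were lower in the livers labelled TshrMKO and 5 of them passed, with a median of -0.71. Egr1 (-1.23 ± 0.17) and Ier2 (-0.55 ± 0.12) had the smallest p values. The whole list summed to 178 to 195 CPM in Tshrf/f livers and 72.4 to 116 CPM in the others, groups that did not overlap, as for Klf3, Klf9 and Klf11, and its part in their values was not tested. In BMDMs 2 of 12 passed, Jun higher (1.13 ± 0.20) and Junb lower (-1.24 ± 0.50), with a median of -0.05. Junb overlapped between the genotypes, at 188 to 576 CPM in Tshrf/f and 103 to 229 CPM in TshrMKO, whereas Jun did not. On the ERK5-MEF2 route that induces Klf2 and Klf4, 0 of 7 genes passed in BMDMs, where Mef2c had 1.12 ± 0.52 and Mef2a 0.37 ± 0.19, and 1 of 7 in liver, Mef2d (-0.38 ± 0.14), with Map3k3 next at -0.13 ± 0.10, and the medians were 0.23 and -0.13.

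The lists of known target genes held both higher and lower members. Of 8 KLF2 and KLF4 targets, 7 were tested in BMDMs and 3 passed: the mannose receptor Mrc1 (2.13 ± 0.43) and thrombomodulin Thbd (1.53 ± 0.38) higher, and the cell-cycle inhibitor Cdkn1a lower (-2.67 ± 0.61), with a median of 0.18. In liver 1 of 7 passed, Cdkn1a (-1.92 ± 0.21), with Arg1 next at -0.35 ± 0.20 and a median of -0.0039. Of 8 KLF15 and KLF9 targets, all tested in liver, 1 passed, Tat, a tyrosine-degrading enzyme (-0.58 ± 0.19), which is also among the glucocorticoid-inducible genes, and the gluconeogenic enzyme Pck1 was at -0.39 ± 0.18, with a median of -0.30. In BMDMs 1 of 3 passed, the clock output gene Dbp (2.09 ± 0.35), with Prodh at 0.94 ± 0.43, which was also the median.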

How the data were processed

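RNA-seq libraries (TruSeq, strand-specific, NovaSeq) were made from BMDMs and livers. The authors trimmed reads with Skewer and checked them with FastQC 0.11.2. Their processing notes name STAR, StringTie and mm10. The counting program, and whether counting used strand, are not given in the sources used here. The authors deposited raw read counts per gene, the unit used throughout. The study's own test, the MARS model of DEGseq, compares a pair of counts and holds no replicate spread, and was replaced.

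Genotype was tested within each tissue (6 libraries) with edgeR 4.0.16 (R 4.3.3), using filterByExpr, TMM scaling and the robust quasi-likelihood test. Contrasts between tissues used all 12 libraries. P-values were adjusted over all genes tested, and a call is an adjusted p under 0.05. SE is the log2 fold change over the root of F. CPM use TMM within the tissue, or over all 12 libraries for tissue comparisons, per kilobase of union exon length (GENCODE M21). The group-summed Klf15 values use library totals alone. Steps were tested on simulated data. Alternatives were DESeq2 1.42.0, other scalings and filters, a replicate block, the liver label letter, and leaving out each library.

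The members and lists were chosen with earlier results of these data known. All members were named. Of each list, genes were named if called in a genotype comparison, or else the 2 with the smallest unadjusted p per tissue, and of lists with more passing an unadjusted p of 0.05 a few further ones, chosen after their values were seen. A result of the cofactor list is not reported here. Genes of similar pattern were the 2 with the highest Pearson r of tissue-centred log2 CPM (prior count 2). Motifs were matched on both strands.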

Additional observations from a re-analysis of the deposited data

Results flagged for a closer look

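For 3 members the genotype difference differed between liver and BMDMs at an unadjusted p of 0.05 in the test of that difference. The liver difference minus the BMDM difference, on the log2 scale, was -1.56 for Klf10, -1.43 for Klf11 and -0.71 for Klf9. For Klf10 and Klf11 the unadjusted p stayed under 0.05 in all 12 fits that left out 1 library, and for Klf9 in 4 of 12. None of the 3 passed an adjusted p of 0.05 by edgeR. With the liver genotype labels exchanged, chosen after the data were seen, the values were -0.64, 0.079 and 0.27, and none of the 3 passed the unadjusted threshold.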

How the results depend on the processing

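The limits here are 3 libraries a group, a biological coefficient of variation of 0.337 in BMDMs and 0.273 in liver, and scaling that must bridge tissues. DESeq2 raised the number of members past an adjusted p of 0.05 from 0 to 1 in BMDMs, from 0 to 1 in liver and from 0 to 2 for the difference between tissues. Leaving out each library moved the members past an unadjusted p of 0.05 in BMDMs from 3 to between 1 and 3, with 1 (Klf10) without TshrMKO replicate 1 or 2, and those of the difference between tissues from 3 to between 2 and 5, with 5 without BMDM Tshrf/f replicate 2, where 1 (Klf15, at BMDM counts near 0) passed an adjusted p of 0.05 against 0 otherwise. Same-numbered libraries deviated together weakly or not at all (r of 0.096, 0.013 and 0.102 in BMDMs and -0.056, 0.217 and -0.021 in liver). Pairs of unlike number reached an r of 0.153 in BMDMs and 0.281 in liver. With a replicate block, 3 members in BMDMs, 3 in liver and 5 for the difference between tissues passed an unadjusted p of 0.05, and 0 an adjusted one.

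Signs turned as follows, on the log2 scale. With library totals only, Klf3 was 0.076 and Klf13 0.12 in BMDM genotypes, Klf3 0.14, Klf13 0.68 and Klf2 0.72 between tissues in Tshrf/f, and Klf2 0.64 and Klf11 0.16 in TshrMKO. With upper-quartile scaling Klf13 in BMDM genotypes was 0.042 and Klf2 between tissues in Tshrf/f 0.073, and without a filter the latter was 0.01. With a mean of at least 50 counts Klf13 was 0.0046 in BMDM genotypes and Klf3 -0.038 between tissues in TshrMKO. With the label letter as covariate Klf4 in liver was -0.032. With 1 library left out, the ranges that crossed 0 were, in BMDM genotypes, -0.0015 to 0.43 for Klf9, -0.34 to 0.045 for Klf4, -0.36 to 0.021 for Klf3, -0.17 to 0.14 for Klf13 and -0.15 to 0.42 for Klf2. In liver they were -0.27 to 0.82 for Klf4, -0.052 to 0.12 for Klf15, -0.48 to 0.26 for Klf7 and -0.12 to 0.23 for Klf6. Between tissues they were -0.31 to 0.037 for Klf13 and -0.44 to 0.37 for Klf2 in Tshrf/f, and -0.11 to 0.14 for Klf3 and -0.10 to 0.18 for Klf13 in TshrMKO. For the difference between tissues in genotype they were -0.10 to 1.00 for Klf4 and -0.11 to 0.69 for Klf2. With the liver genotype labels exchanged, an alternative chosen after the data were seen, the difference between tissues was 0.27 for Klf9, -0.14 for Klf4, 0.91 for Klf3, 0.23 for Klf13, -0.34 for Klf2 and 0.079 for Klf11, and 1 member (Klf3) passed an unadjusted p of 0.05.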

Other observations

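The rest of the gene family was mostly silent or low. Klf14, Klf17, Sp8 and Sp9 had 0 counts in all 12 libraries. Klf12, which like Klf3 binds CtBP, had 373 to 720 counts in livers and 0 to 13 in BMDMs, and in liver its log2 fold change was 0.43 ± 0.14 (SE), with an adjusted p of 0.394 by edgeR and no overlap between genotypes, opposite in sign to Klf3. Klf16 was at 101 to 185 counts in livers and 278 to 422 in BMDMs, with log2 fold changes of -0.25 ± 0.19 and -0.20 ± 0.31. Klf8 had 66 to 159 counts in BMDMs and at most 7 in livers, with a log2 fold change of -0.32 ± 0.35 in BMDMs. Of the 7 further Klf genes, 3 were tested in each tissue, and 1 passed an unadjusted p of 0.05, Klf12 in liver, and the medians were -0.20 in BMDMs and 0.39 in liver. Among the 9 Sp genes, 0 of 4 tested passed in BMDMs, where Sp3 had 0.24 ± 0.11 and Sp4 -0.18 ± 0.16, and 1 of 5 in liver, Sp2, with Sp3 at -0.26 ± 0.12, and the medians were -0.07 and -0.35.

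Among 12 cofactor genes, the deacetylase Hdac1 had a log2 fold change of -0.28 ± 0.10 in BMDMs, past an unadjusted p of 0.05. In liver 2 of the 12 passed that threshold, Sin3a, the corepressor that KLF9, KLF10 and KLF11 recruit (-0.26 ± 0.10), and Hdac3 (0.32 ± 0.13), and the medians were -0.08 and -0.05. Of 6 genes of KLF protein turnover, 3 passed in BMDMs: the ubiquitin ligases Wwp1 (2.00 ± 0.43) and Smurf1 (-0.32 ± 0.12) and the ligase subunit Fbxw7 (0.48 ± 0.11). In liver 0 of 6 passed by edgeR, with Smurf1 at -0.25 ± 0.11 and Wwp1 at 0.13 ± 0.09, and the medians were -0.10 and -0.04. None of these genes passed an adjusted p of 0.05.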
